A study of Homo sapiens with 12 samples.

Results

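MDM2, GDF15, TP53I3, TP53INP1, SESN1, ZMAT3, PHLDA3, FDXR, DDB2 and BTG2 are target genes of the transcription factor p53, and their mRNA levels were followed in human colon cancer cells in which MUC1 was silenced. The 10 genes were taken by symbol from the deposited tables of TPM (a length-corrected share of the transcripts in a library), where all 10 were listed for both cell lines among 25673 genes for LS411N and 25540 for LS411N-BR. LS411N is a colon cancer line, and LS411N-BR is a derivative resistant to BRAF inhibitors. The series title asks whether targeting MUC1-C, the C-terminal subunit of the mucin MUC1, makes such cells sensitive to BRAF inhibition. The 4 groups of 3 libraries were LS411N-BR with 500 ng/ml doxycycline, LS411N-BR without doxycycline, LS411N with 500 ng/ml doxycycline and LS411N without doxycycline. All groups carried a hairpin RNA against MUC1 under a doxycycline-inducible promoter and were resistant to puromycin. Groups without doxycycline received 0.1% DMSO as vehicle, LS411N-BR was grown in 4 µM of a BRAF inhibitor in both of its groups, and LS411N was grown without the inhibitor. No group combined doxycycline with an uninduced or unrelated hairpin, so MUC1 loss and the drug cannot be told apart. Resistance and the presence of the inhibitor cannot be told apart either. The number of clones behind each line and the days on doxycycline were not stated in the labels.

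p53 is held at a low level in unstressed cells by MDM2, a ubiquitin ligase that is itself a p53 target, so that the pair forms a feedback loop. When DNA damage or another stress frees p53, the protein binds a response element near its target genes and raises genes of cell cycle arrest (CDKN1A, BTG2), DNA repair (DDB2), redox control (TP53I3, SESN1, FDXR), cell death and autophagy (TP53INP1), RNA binding (ZMAT3) and signalling (GDF15, PHLDA3). Several of these genes also answer to other regulators, such as ATF4 for GDF15 and FOXO factors for SESN1. In intestinal epithelium the pathway restrains division after genotoxic stress.

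MUC1, the targeted gene (GRCh38 chromosome 1, 155185824 to 155192916, minus strand), had 0.699, 0.388 and 0.44 TPM in LS411N-BR with doxycycline, against 3.69, 3.94 and 4.27 TPM without it. In LS411N it had 0.986, 0.814 and 0.967 TPM with doxycycline, against 4.64, 6.1 and 4.54 TPM without it. The libraries therefore sorted by MUC1 as they are labelled. The colon epithelium marker EPCAM averaged 494 to 797 TPM over the 4 groups and KRT8 636 to 1280 TPM, while CDX1, another colon marker, averaged at most 0.028 TPM. The defining immune marker PTPRC averaged at most 0.00114 TPM and the endothelial marker PECAM1 at most 0.00875 TPM, whereas LYZ and CD68, which myeloid cells and some epithelial cells share, averaged 48.9 to 2590 and 7.57 to 70.7 TPM. In LS411N-BR 9 of 11 tested epithelial markers rose and 1 fell, beside 56.1% and 11.1% of all genes, and in LS411N 5 of 11 rose and 1 fell, beside 9.75% and 3.43%. Of 10 immune markers only LYZ and CD68 could be tested, LYZ falling and CD68 rising in both lines, and of 10 fibroblast and endothelial markers only LUM could be tested, in LS411N-BR, where it rose. Their part in the results below was not tested. Read totals were not among the values used, so the depth of a library is unknown. Genes above 0 numbered 15116 to 17999 per library, the lowest in replicate 3 of LS411N without doxycycline. Short RNA genes took 47.17% of the TPM in that library, against 58.01% and 57.92% in the other untreated LS411N libraries. They took 47.36 to 51.36% in LS411N-BR with doxycycline and 52.35 to 54.3% without it. TPM are shares of a library, and the median log2 change of all tested genes was 0.18 in LS411N-BR and 0.08 in LS411N. Changes are therefore also given relative to that median, or after median-of-ratios rescaling, which brought it to 0.00 in LS411N-BR and 0.01 in LS411N. In bulk RNA, fewer cells that express a gene and less RNA of it per cell cannot be told apart.

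The target genes did not move together. In LS411N-BR, 4 of the 8 that could be tested rose with doxycycline (MDM2, GDF15, TP53I3 and BTG2), 3 fell (SESN1, FDXR and DDB2) and ZMAT3 did not pass the test. Of all 11322 genes tested there, 56.1% rose and 11.1% fell, so the members' share of rises (50%) lay near that of all genes. In LS411N, 2 of 8 rose (GDF15 and TP53I3), 1 fell (SESN1) and 5 did not pass, beside 9.75% of 11281 genes that rose and 3.43% that fell. GDF15, TP53I3 and SESN1 thus changed in both lines in the same direction. TP53INP1 and PHLDA3 stayed under 1 TPM in most or all libraries and were not tested. The median log2 change of the tested members was 0.05 in LS411N-BR and 0.06 in LS411N, against 0.18 and 0.08 over all genes. With 8 members, these counts and medians describe the genes and were not tested as a set. A gene was tested when at least 3 of the 6 libraries of a line reached 1 TPM, and called when limma gave a Benjamini-Hochberg adjusted p under 0.05. In LS411N-BR the SE and p-values rest on a spread taken over genes of like level, not on that of the gene itself. Log2 changes are on the scale of log2(TPM + 1), which understates changes of genes with few TPM.

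**Figure D1:**
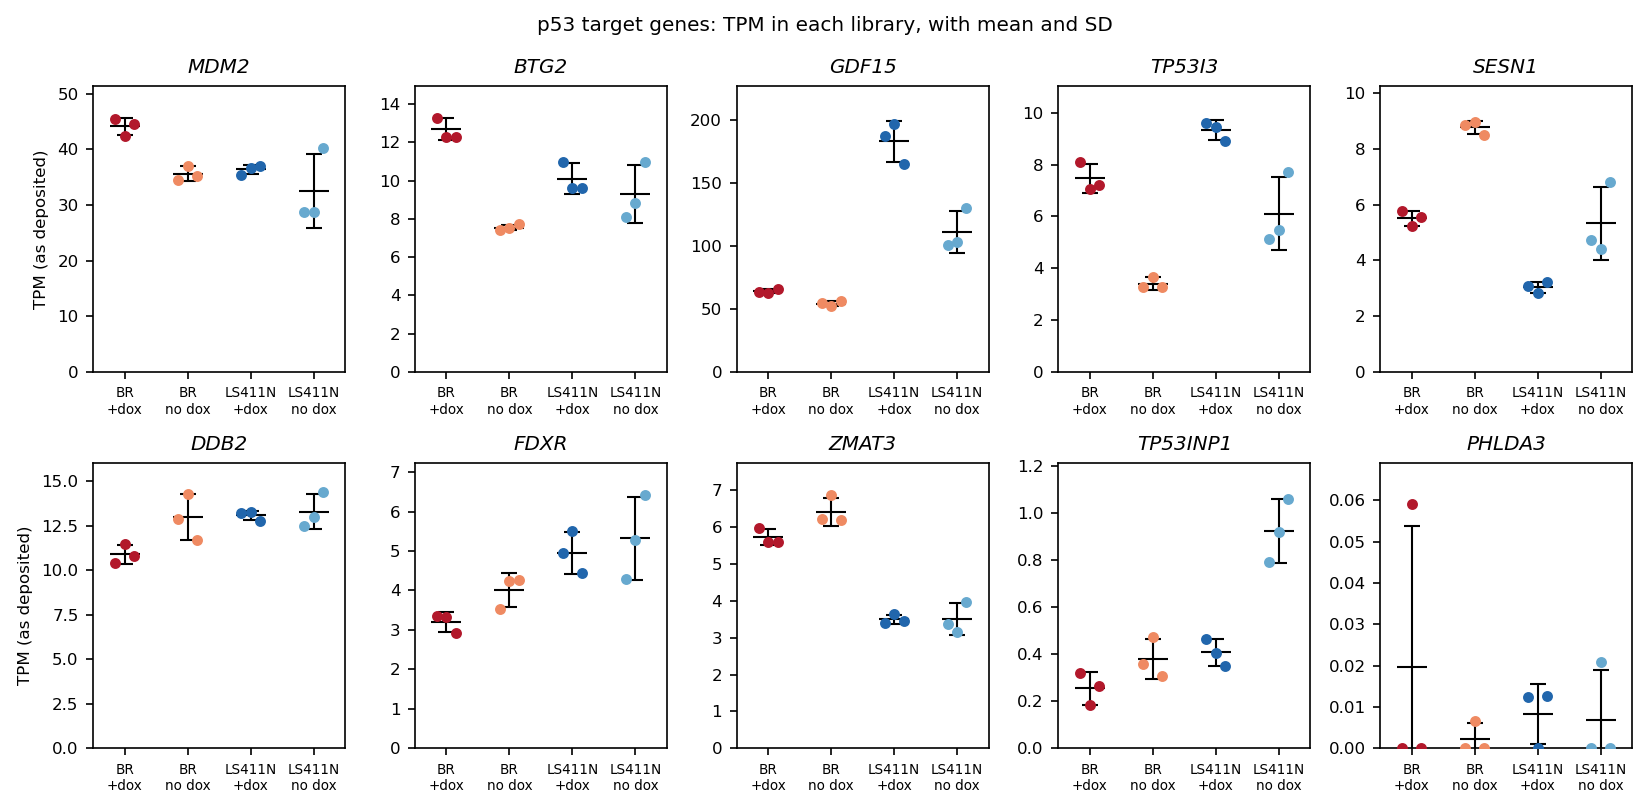
TPM as deposited of each of the 10 p53 target genes in the 12 libraries, each gene with its own axis from 0. Points are libraries, and bars are the mean with SD (n = 3) of LS411N-BR (BR) with and without doxycycline (dox) and LS411N with and without it; TP53I3 and BTG2 lie higher with doxycycline in LS411N-BR, SESN1 lies lower with it in both lines, and PHLDA3 is at or near 0 in every group.

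**Figure D2:**
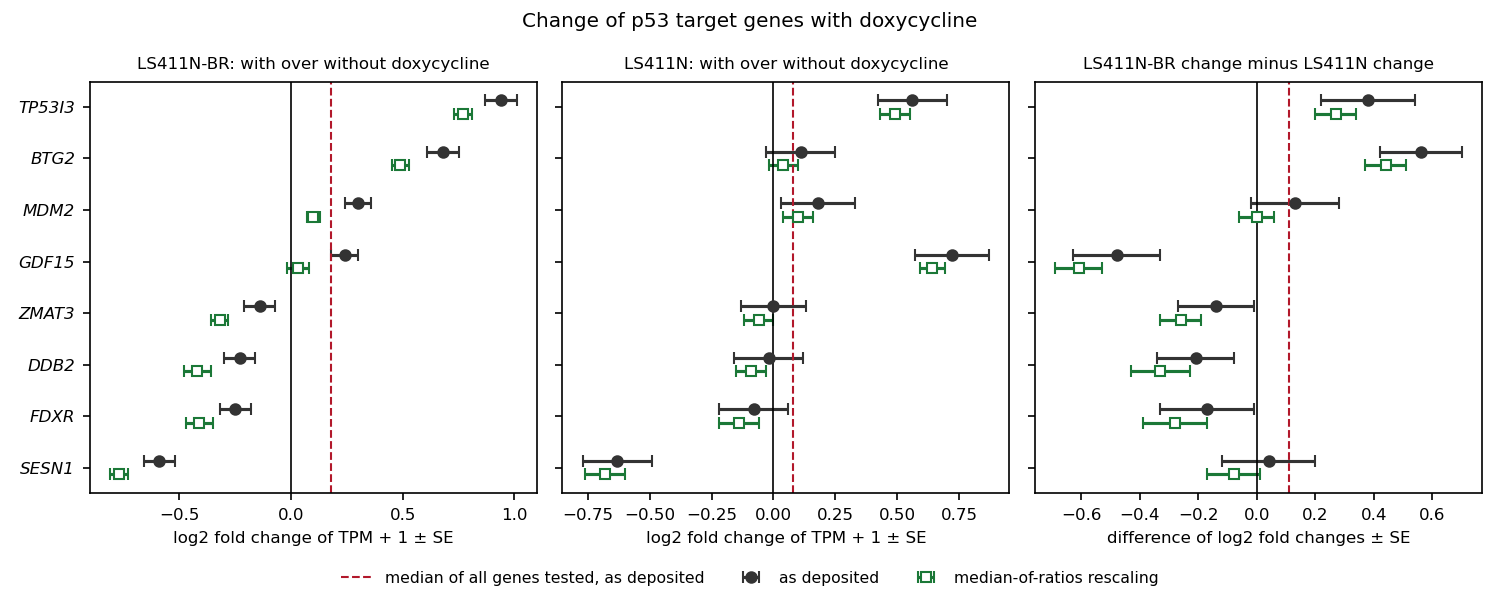
Log2 fold change of TPM + 1 with doxycycline, with SE from limma, of the 8 tested members in LS411N-BR and in LS411N, and the difference between the lines. Filled circles are values as deposited, open squares are values after median-of-ratios rescaling, and the dashed line is the median of all tested genes as deposited (0.18, 0.08 and 0.11); MDM2 and GDF15 sit near that line in LS411N-BR, TP53I3 and BTG2 above it, and ZMAT3, DDB2, FDXR and SESN1 below it.

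The promoters of these genes differ in how closely they hold the letters of a p53 response element. That element is a pair of 10-letter units, each of 3 purines, C, 2 letters that are A or T, G and 3 pyrimidines, with 0 or 1 base between the units in the search. It reads the same on both strands. The best match out of 20 letters was scored in RefSeq promoter windows (GRCh38.p14) of 250 bases before and 50 bases after each start, which 8 of the 10 members had. DDB2 had the closest match, with all 20 letters, which 0.0199% of 35093 distinct windows of that length reach. MDM2 followed with 18 letters (1.34% of windows hold at least as many), then GDF15, SESN1 and FDXR with 17 (9.76%), BTG2 and ZMAT3 with 16 (41.3%) and TP53I3 with 15 (85.6%). MDM2, SESN1, FDXR, DDB2 and ZMAT3 have several windows and are given by the best of them. The percentages count single windows, so they make such genes look rarer than a share of genes would. The 4 stretches below are shown because they belong to genes called in opposite directions in LS411N-BR as deposited, MDM2 and GDF15 up and SESN1 and DDB2 down. The GDF15 rise there was 0.03 and not called after median-of-ratios rescaling, and that of MDM2 was 0.10. They are given 5′ to 3′ on the strand of the gene, and capitals mark the best match. MDM2 is shown at chr12:68808767-68809001 (plus strand), upstream of the internal start that is known as its p53-responsive promoter, and the match begins 94 bases before that start. SESN1 is shown at chr6:109008989-109009238 (minus strand), with the match beginning 49 bases before an internal start. GDF15 at chr19:18386178-18386207 (plus strand) and DDB2 at chr11:47214975-47215004 (plus strand) lie in annotated exons, with matches beginning 28 and 5 bases after a start.
MDM2: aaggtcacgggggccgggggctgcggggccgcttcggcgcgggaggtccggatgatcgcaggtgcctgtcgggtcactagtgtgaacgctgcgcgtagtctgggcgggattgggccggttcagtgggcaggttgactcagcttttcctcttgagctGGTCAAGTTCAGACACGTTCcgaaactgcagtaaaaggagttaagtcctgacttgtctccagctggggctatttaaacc
SESN1: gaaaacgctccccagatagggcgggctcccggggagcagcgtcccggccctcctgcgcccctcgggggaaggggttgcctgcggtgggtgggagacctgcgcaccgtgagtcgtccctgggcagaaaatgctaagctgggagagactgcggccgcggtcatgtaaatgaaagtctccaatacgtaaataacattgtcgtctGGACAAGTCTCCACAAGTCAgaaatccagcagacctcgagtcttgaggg
GDF15: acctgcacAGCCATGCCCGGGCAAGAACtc
DDB2: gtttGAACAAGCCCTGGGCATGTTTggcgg
The score did not order the changes. DDB2, with the highest score, fell in LS411N-BR, while TP53I3, with the lowest, had the largest rise. A match of letters is a description of these windows and says nothing of binding. Elements outside the windows or of another form were not scored, so a low score does not mean that a gene lacks an element.

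**Figure D3:**
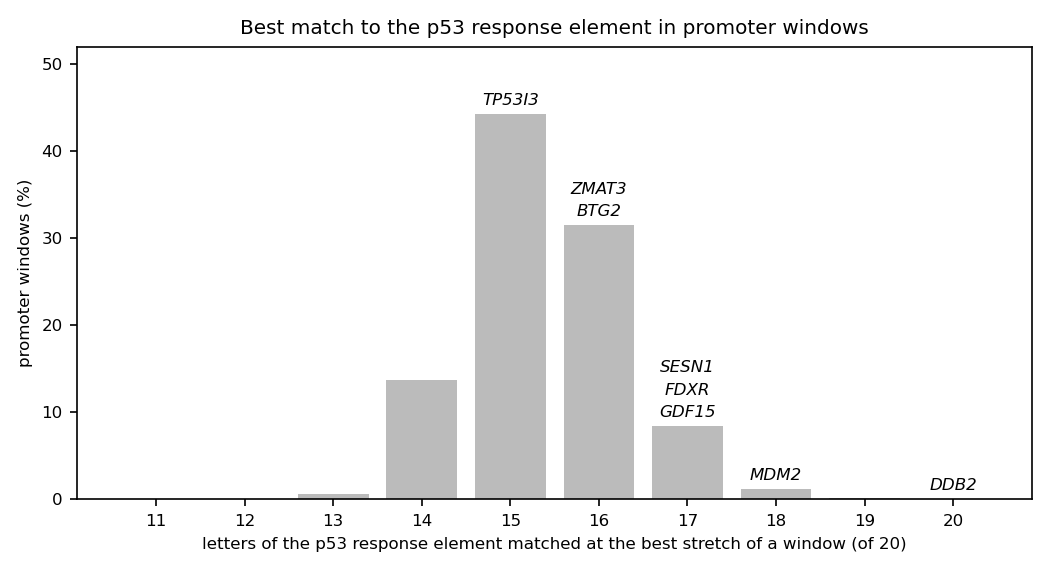
Share of 35093 RefSeq promoter windows (y axis, percent) by the number of letters of the p53 response element in their best match (x axis, out of 20), with the 8 members named above the bar of their best window. TP53I3 stands at 15 letters, the commonest score, and DDB2 alone among the members at 20.

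MDM2, the negative feedback regulator of p53 (chromosome 12, 68808176 to 68850686, plus strand), was among the most abundant members. It had 45.5, 42.4 and 44.5 TPM in LS411N-BR with doxycycline, against 34.5, 37.1 and 35.3 TPM without it. Every library with doxycycline lay above every library without it, and the log2 change was 0.30 ± 0.06 SE (adjusted p = 6.4e-06). The rise exceeded the median of all genes by 0.12, and after median-of-ratios rescaling it was 0.10 (adjusted p = 0.01). In LS411N, MDM2 had 35.4, 36.7 and 37.1 TPM with doxycycline, against 28.7, 28.7 and 40.2 TPM without it. Replicate 3 without doxycycline lay above all 3 treated libraries, so the groups overlapped. The change was 0.18 ± 0.15 SE (adjusted p = 0.51, 95% interval -0.12 to 0.47), and it was 0.33 (adjusted p = 0.00034) without that replicate. All 8 tested members were higher in that replicate than in both other libraries of its group, as were 89.4% of the 11281 tested genes, with a median log2 difference of 0.36 for the members and 0.34 for all genes.

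BTG2, an antiproliferative gene of the BTG/TOB family (chromosome 1, 203305491 to 203309602, plus strand), had 13.3, 12.3 and 12.3 TPM in LS411N-BR with doxycycline, against 7.44, 7.5 and 7.72 TPM without it. The groups were far apart compared with their spread, and BTG2 rose by 0.68 ± 0.07 SE (adjusted p = 6e-22), which is 0.49 above the median of all genes. In LS411N, BTG2 had 11, 9.64 and 9.61 TPM with doxycycline, against 8.11, 8.85 and 11 TPM without it. These groups overlapped, and the change of 0.11 ± 0.14 SE did not pass the test (adjusted p = 0.68). Without replicate 3 of the untreated libraries the change was 0.23 (adjusted p = 0.018).

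GDF15, a secreted stress cytokine of the TGF-beta superfamily (chromosome 19, 18374731 to 18389176, plus strand), was the most abundant member in every group. It had 187, 197 and 165 TPM in LS411N with doxycycline, against 101, 103 and 130 TPM without it. The lowest treated library lay above the highest untreated library, and GDF15 rose by 0.72 ± 0.15 SE (adjusted p = 0.00038). In LS411N-BR it had 63.5, 62.6 and 65.8 TPM with doxycycline, against 54.4, 52.2 and 55.9 TPM without it. The groups again did not overlap, and the change of 0.24 ± 0.06 SE passed the test (adjusted p = 0.00039). That change was only 0.05 above the median of all genes. After median-of-ratios rescaling it was 0.03 and no longer called (adjusted p = 0.62), and with the spread taken from all 12 libraries its adjusted p was 0.069.

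TP53I3, an NADPH-dependent quinone oxidoreductase also known as PIG3 (chromosome 2, 24077433 to 24085861, minus strand), had the largest change of the members in LS411N-BR. It had 8.1, 7.07 and 7.23 TPM with doxycycline, against 3.26, 3.68 and 3.28 TPM without it, a ratio of means of 2.19. All treated libraries lay above all untreated libraries, and TP53I3 rose by 0.94 ± 0.07 SE (adjusted p = 3.2e-38). After median-of-ratios rescaling the change was 0.77 (adjusted p = 2.3e-07). In LS411N it had 9.63, 9.46 and 8.92 TPM with doxycycline, against 5.13, 5.47 and 7.73 TPM without it. There too the groups did not overlap, and TP53I3 rose by 0.56 ± 0.14 SE (adjusted p = 0.004). This call in LS411N was lost without replicate 1 of the untreated libraries (0.46, adjusted p = 0.051), without replicate 3 of the treated libraries (0.59, adjusted p = 0.063), and without the filter on low values (adjusted p = 0.11).

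SESN1, a sestrin that restrains mTORC1 and limits oxidative stress (chromosome 6, 108986437 to 109094819, minus strand), fell in both lines. It had 5.76, 5.23 and 5.56 TPM in LS411N-BR with doxycycline, against 8.85, 8.97 and 8.5 TPM without it. The groups were well separated, and the log2 change was -0.59 ± 0.07 SE (adjusted p = 4.3e-16), or -0.77 after median-of-ratios rescaling. In LS411N it had 3.07, 2.84 and 3.22 TPM with doxycycline, against 4.74, 4.42 and 6.82 TPM without it. No treated library reached the lowest untreated one, and the change was -0.63 ± 0.14 SE (adjusted p = 0.00075). Without replicate 3 of the untreated libraries it was -0.47 (adjusted p = 0.00019), and without the filter on low values the adjusted p was 0.098.

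FDXR, ferredoxin reductase of the mitochondrial electron chain that serves steroid and iron-sulfur cluster synthesis (chromosome 17, 74862497 to 74873031, minus strand), had 3.35, 3.33 and 2.92 TPM in LS411N-BR with doxycycline, against 3.52, 4.24 and 4.27 TPM without it. All treated libraries were below all untreated ones, and FDXR fell by 0.25 on the log2 scale (SE 0.07, adjusted p = 0.0013). The call was lost without the filter on low values (adjusted p = 0.063) and with the spread from all 12 libraries (adjusted p = 0.071). After median-of-ratios rescaling the change was -0.41 (adjusted p = 0.00031), and after rescaling over protein-coding genes -0.39 (adjusted p = 8.9e-05). In LS411N, FDXR had 4.94, 5.5 and 4.44 TPM with doxycycline, against 4.29, 5.28 and 6.41 TPM without it. The groups overlapped, and the change of -0.08 ± 0.14 SE did not pass (adjusted p = 0.79).

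DDB2, the damage-recognition subunit of nucleotide excision repair that is mutated in xeroderma pigmentosum group E (chromosome 11, 47214465 to 47239240, plus strand), had 10.4, 11.5 and 10.8 TPM in LS411N-BR with doxycycline, against 12.9, 14.3 and 11.7 TPM without it. The groups did not overlap by a narrow margin, and DDB2 fell by 0.23 on the log2 scale (SE 0.07, adjusted p = 0.0013). Without the filter on low values the adjusted p was 0.058, and after median-of-ratios rescaling the change was -0.42 (adjusted p = 0.00026). In LS411N, DDB2 had 13.2, 13.3 and 12.8 TPM with doxycycline, against 12.5, 13 and 14.4 TPM without it. The treated libraries lay within the range of the untreated ones, and the change was -0.02 ± 0.14 SE (adjusted p = 0.95, 95% interval -0.29 to 0.25).

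ZMAT3, a zinc finger RNA-binding protein known to regulate splicing and mRNA stability downstream of p53 (chromosome 3, 179017223 to 179072279, minus strand), had 5.99, 5.6 and 5.6 TPM in LS411N-BR with doxycycline, against 6.21, 6.86 and 6.2 TPM without it. The treated libraries were all below the untreated ones, yet the change of -0.14 ± 0.07 SE did not pass the test (adjusted p = 0.065). It was -0.32 (adjusted p = 3.7e-05) after median-of-ratios rescaling and -0.26 (adjusted p = 0.00019) after rescaling over protein-coding genes. Leaving out replicate 1 with doxycycline also brought it past the threshold (-0.17, adjusted p = 0.047). In LS411N, ZMAT3 had 3.41, 3.64 and 3.45 TPM with doxycycline, against 3.38, 3.15 and 3.98 TPM without it. The means were equal at 3.5 TPM, and the interval of the change ran from -0.25 to 0.26.

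TP53INP1, a nuclear protein of stress-induced death and autophagy (chromosome 8, 94925972 to 94949411, minus strand), was near or below 1 TPM throughout. In LS411N it had 0.466, 0.406 and 0.351 TPM with doxycycline, against 0.79, 0.92 and 1.06 TPM without it. In LS411N-BR it had 0.319, 0.182 and 0.263 TPM with doxycycline, against 0.359, 0.475 and 0.309 TPM without it. The groups were separate in LS411N and overlapped in LS411N-BR. When all genes above 0 were tested, the change was -0.45 ± 0.06 SE in LS411N (adjusted p = 0.023) and -0.14 ± 0.06 SE in LS411N-BR (adjusted p = 0.12). At such levels log2(TPM + 1) compresses the change, and the ratio of means was 0.441 in LS411N and 0.669 in LS411N-BR. PHLDA3, a pleckstrin homology protein that competes with AKT for membrane lipid (chromosome 1, 201464383 to 201469237, minus strand), was listed at 0 in 7 of the 12 libraries. Its highest values were 0.0592 TPM in LS411N-BR with doxycycline, 0.00665 TPM in LS411N-BR without it, 0.0126 TPM in LS411N with doxycycline and 0.0208 TPM in LS411N without it. No change can be read from values this close to 0.

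The change with doxycycline in LS411N-BR was set against that in LS411N by the interaction term of a fit over all 12 libraries. BTG2 was the only member of the 8 tested that was called, with a change larger in LS411N-BR by 0.56 ± 0.14 SE (adjusted p = 0.038), and no member was called lower, beside 1.39% of 11674 genes called higher and 0.728% called lower. At an unadjusted p under 0.05, limma gave 2 members higher (BTG2 and TP53I3) and 1 lower (GDF15), beside 1190 and 336 of all 11674 genes. The BTG2 call was lost in 11 of 20 alternatives, with adjusted p up to 0.15. Of these, 8 left out a single library, namely any of the 6 of LS411N-BR or replicate 2 or 3 of treated LS411N. The call held under both rescalings (0.44, adjusted p = 0.0014, and 0.50, adjusted p = 0.00046). GDF15 changed by 0.48 less in LS411N-BR (-0.48 ± 0.15 SE) with an adjusted p of 0.11. After median-of-ratios rescaling the GDF15 difference was -0.61 (adjusted p = 0.00029), after rescaling over protein-coding genes -0.57 (adjusted p = 0.00025), and without replicate 3 of untreated LS411N -0.60 (adjusted p = 8.4e-05). TP53I3 had a difference of 0.38 ± 0.16 SE (adjusted p = 0.29), and 0.27 after median-of-ratios rescaling (adjusted p = 0.023). That rescaling also called ZMAT3 (-0.26, adjusted p = 0.021) and DDB2 (-0.33, adjusted p = 0.044) lower. For MDM2 the difference was 0.13 ± 0.15 SE (95% interval -0.19 to 0.45), for SESN1 0.04 ± 0.16 SE (-0.28 to 0.36) and for FDXR -0.17 ± 0.16 SE (-0.50 to 0.15). These intervals include 0 and leave room for differences of either sign.

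Levels in the resistant and the parental line were compared without a test, because each line's table was scaled over its own genes. GDF15 was lower in LS411N-BR, at 0.35 times LS411N with doxycycline and 0.486 times without it, or 0.274 and 0.381 times when both tables were rescaled over the genes they share. TP53I3 stood at 0.80 times LS411N with doxycycline and 0.558 times without it, and FDXR at 0.646 times with it and 0.753 times without it. Both stayed below 1 under the shared scale. SESN1 was higher in LS411N-BR, at 1.81 times with doxycycline and 1.65 times without it, or 1.42 and 1.29 times on the shared scale. ZMAT3 was likewise higher, at 1.64 times with doxycycline and 1.83 times without it, or 1.28 and 1.44 times on the shared scale. For MDM2 the direction depended on the scale, with 1.21 times with doxycycline and 1.09 times without it as deposited, and 0.949 and 0.859 times on the shared scale. For BTG2 the ratio was 1.25 with doxycycline and 0.81 without it as deposited, and 0.984 and 0.635 on the shared scale. In LS411N with doxycycline, the mean levels per length ran from GDF15 at 183 ± 16 TPM through MDM2 at 36.4 ± 0.872, DDB2 at 13.1 ± 0.264, BTG2 at 10.1 ± 0.813, TP53I3 at 9.34 ± 0.37, FDXR at 4.96 ± 0.53, ZMAT3 at 3.5 ± 0.121 and SESN1 at 3.04 ± 0.196 to TP53INP1 at 0.408 ± 0.0571 TPM (SD, n = 3). In that order BTG2 and TP53I3 lay within 1 SD of each other, and the other neighbours were further apart. In LS411N-BR with doxycycline, BTG2 at 12.7 ± 0.561 TPM lay above DDB2 at 10.9 ± 0.541 TPM, and SESN1 at 5.51 ± 0.269 TPM and ZMAT3 at 5.73 ± 0.225 TPM differed by less than their SD.

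Genes whose pattern was most like that of MDM2 over the 12 libraries, after each line was centred on its own mean, were C6ORF62 and ARHGAP5 (Pearson r = 0.994 each) and BTBD1 (r = 0.993) among 7602 genes compared. For TP53I3 they were SECISBP2L, CDS2 and RNF103 (r = 0.997 each). SECISBP2L averaged 14.3 ± 0.718 TPM in LS411N-BR with doxycycline and 7.91 ± 0.539 TPM without it, and 8.21 ± 0.166 TPM in LS411N with doxycycline and 5.82 ± 1.04 TPM without it. These correlations are descriptions. The points fall into treated and untreated clusters and share the scaling of each library, including the raised values of replicate 3 in untreated LS411N.

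A wider list of 61 other p53 targets was examined beside the 10 genes. In LS411N-BR, 37 of the 51 tested rose, 5 fell and 9 did not pass, a share of 72.5% risen beside 56.1% of all genes. Their median log2 change was 0.26 against 0.18 over all genes. In LS411N, 16 of 51 rose (31.4% beside 9.75% of all genes), 35 did not pass and none fell. At an unadjusted p under 0.05, limma gave 22 higher and 1 lower there, beside 2039 and 752 of all 11281 genes. Median-of-ratios rescaling left 23 of the targets higher and 10 lower in LS411N-BR, and gave 22 higher and 1 lower in LS411N. Of all genes, the same rescaling called 3653 higher and 3644 lower in LS411N-BR, and 2126 and 1804 in LS411N. As deposited, 15 of these targets were called in both lines, all in the same direction, 27 in LS411N-BR alone and 1 in LS411N alone. The same overlap was not counted over all genes, most of whose calls were also rises in each line. These counts therefore describe the list alone and do not set it apart from other genes. That a call appeared in a single line was not tested as a difference, except through the interaction term.

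CDKN1A, which encodes the cyclin-dependent kinase inhibitor p21, had the largest rise of the list in LS411N-BR and the second after ACER2 in LS411N. It had 65.8, 59.1 and 60.1 TPM in LS411N-BR with doxycycline, against 17.8, 18.4 and 17.6 TPM without it, and rose by 1.73 ± 0.06 SE (adjusted p = 9.6e-155). In LS411N it had 23.1, 22.1 and 20 TPM with doxycycline, against 6.58, 7.2 and 7.87 TPM without it, and rose by 1.47 ± 0.14 SE (adjusted p = 1.6e-11). The groups were widely separate in both lines, and the difference between lines was 0.26 (adjusted p = 0.42). ACER2, an alkaline ceramidase, averaged 10.2 ± 0.908 TPM with doxycycline and 4.62 ± 0.49 TPM without it in LS411N-BR, and in LS411N 11.2 ± 0.784 TPM with doxycycline and 3.05 ± 0.249 TPM without it. It rose by 1.00 in LS411N-BR and 1.59 in LS411N. Its rise was smaller in LS411N-BR by 0.59 (SE 0.14, adjusted p = 0.022), a call lost in 6 of 20 alternatives, of which 5 left out a single library (adjusted p up to 0.094). KITLG, the ligand of the receptor KIT, averaged 174 ± 7.13 TPM with doxycycline and 93.5 ± 2.21 TPM without it in LS411N-BR, and in LS411N 83 ± 1.87 TPM with doxycycline and 54 ± 11.2 TPM without it. The KITLG call in LS411N was lost without replicate 3 of the treated libraries and without the filter on low values (adjusted p up to 0.076). The receptor tyrosine kinase EPHA2 rose by 0.93 in LS411N-BR and 0.92 in LS411N. The desmosomal apoptosis effector PERP rose by 0.81 in LS411N-BR and 0.77 in LS411N. The death receptor FAS rose by 0.76 in LS411N-BR and 0.53 in LS411N, where the call was lost without the filter on low values (adjusted p = 0.063). IKBIP, SERTAD1 and REV3L were called in LS411N-BR alone, with rises of 0.56, 0.52 and 0.44. ABCA12, a lipid transporter, was called in LS411N alone, with 2.47 ± 0.171 TPM with doxycycline and 1.43 ± 0.583 TPM without it (0.54, adjusted p = 0.0031). It had 0.426 ± 0.0318 TPM with doxycycline and 0.614 ± 0.0509 TPM without it in LS411N-BR, too low there to be tested, and the difference between the lines was -0.72 (adjusted p = 0.021). The ABCA12 call in LS411N was lost in 3 of 14 alternatives (adjusted p up to 0.18) and that of the difference in 7 of 19 (adjusted p up to 0.14), most of them leaving out a single library. The 5 that fell in LS411N-BR were CCNG1, SYTL1, LIF, TNFRSF10D and PMAIP1, of which the cyclin gene CCNG1 (-0.36, adjusted p = 1.9e-08) and SYTL1 (-0.36, adjusted p = 1.2e-06) changed most.

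**Figure D4:**
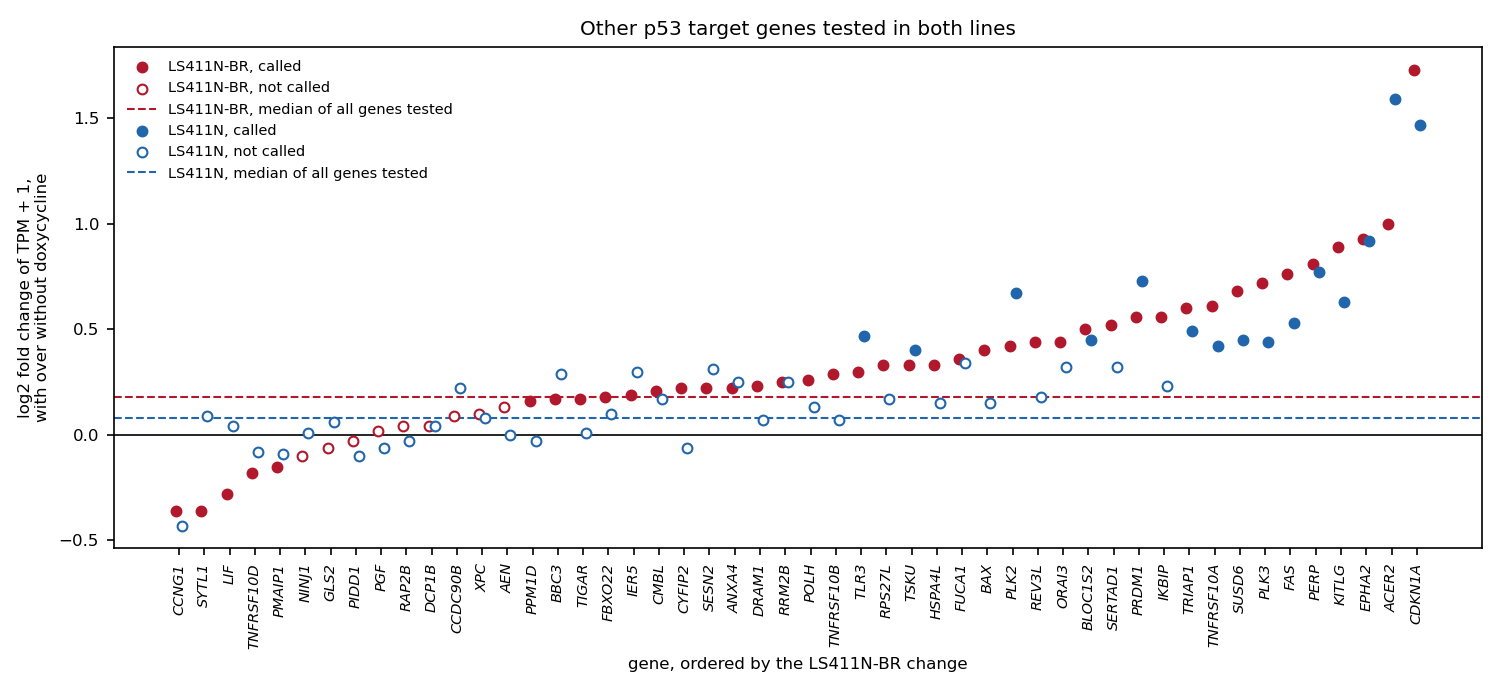
Log2 fold change of TPM + 1 with doxycycline of the 50 other p53 targets tested in both lines, ordered by the change in LS411N-BR. Filled points passed the test and open points did not, with LS411N-BR in red, LS411N in blue and the median of all tested genes as dashed lines; CDKN1A and ACER2 stand highest in both lines, and CCNG1 lies at the low end in both.

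Genes that control p53 were examined next. Of 18 regulators tested, 9 rose in LS411N-BR and none fell, beside 56.1% and 11.1% of all genes. At an unadjusted p under 0.05, limma gave 10 higher and 0 lower, beside 6549 and 1320 of all 11322 genes. After median-of-ratios rescaling 2 regulators were higher and 7 lower, while of all genes 3653 were higher and 3644 lower. The direction of this list, like that of all genes, thus depends on the scale. In LS411N, as deposited, none was called in either direction. None had an unadjusted limma p under 0.05 there, beside 2039 higher and 752 lower of all 11281 genes. MDM4, the partner of MDM2 that masks the p53 activation domain, averaged 6.89 ± 0.0757 TPM in LS411N-BR with doxycycline and 7.15 ± 0.458 TPM without it, a change of -0.05 (adjusted p = 0.57), or -0.23 after median-of-ratios rescaling (adjusted p = 0.00056). In LS411N the MDM4 change was -0.22 without a call. It was called lower there after median-of-ratios rescaling (-0.29, adjusted p = 0.0037) and after rescaling over protein-coding genes (-0.26, adjusted p = 0.011). USP7, a deubiquitinase of MDM2 and p53, was called higher in LS411N-BR (0.19, adjusted p = 0.0043), which is 0.01 above the median of all genes. The call was lost under both rescalings (adjusted p = 0.69 and 0.083), with the spread from all 12 libraries (0.19) and without replicate 3 of the untreated LS411N-BR libraries (0.06). ATM, the kinase that signals double-strand breaks to p53, had a change of 0.03 (adjusted p = 0.77) in LS411N-BR. The checkpoint kinase gene CHEK2 and the p53-binding TP53BP1 rose by 0.33 each in LS411N-BR, and CDKN2A, whose ARF product restrains MDM2, rose by 0.27, or by 0.13 without a call (adjusted p = 0.11) after median-of-ratios rescaling. In LS411N these 3 genes had changes of 0.26, 0.02 and 0.11, none of which passed. CHEK2 was called higher in LS411N after median-of-ratios rescaling (0.19, adjusted p = 0.013), after rescaling over protein-coding genes (0.24, adjusted p = 0.005) and without replicate 3 of the untreated libraries (0.36, adjusted p = 4e-04).

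Cell cycle genes that p53 is known to repress through p21 moved in both directions in LS411N-BR. Of 20 there, 6 rose (30% beside 56.1% of all genes), 4 fell (20% beside 11.1%) and 10 did not pass. In LS411N, 1 of 20 rose and none fell, beside 9.75% and 3.43% of all genes. With limma at an unadjusted p under 0.05, 1 was higher and 3 lower there, beside 2039 and 752 of all 11281 genes. After median-of-ratios rescaling 14 of the 20 were lower and 2 higher in LS411N-BR, and 12 were lower and 1 higher in LS411N. Of all genes, that rescaling called 3644 lower and 3653 higher in LS411N-BR, and 1804 lower and 2126 higher in LS411N. CDC25B, a phosphatase that activates CDK1, rose in both lines, with 46 ± 2.22 TPM with doxycycline and 30.9 ± 1.19 TPM without it in LS411N-BR, and in LS411N 34 ± 3.55 TPM with doxycycline and 25 ± 1.46 TPM without it. Its call in LS411N was lost in 7 of 15 alternatives, among them leaving out any library but replicate 3 of the untreated ones (adjusted p up to 0.31). The cytokinesis kinesin KIF23 rose by 0.39 in LS411N-BR. The cytokinesis factor ECT2 changed by -0.31 and the phosphatase CDC25C by -0.26 in LS411N-BR. In LS411N, KIF23, ECT2 and CDC25C changed by 0.13, -0.40 and -0.21, none of them called. ECT2 was called lower there in 7 of 15 alternatives (adjusted p down to 0.00031). CDC25C was called lower there under both rescalings (adjusted p down to 0.0025), and KIF23 higher without replicate 3 of the untreated libraries (adjusted p = 0.00076).

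GDF15 and BTG2 have known inputs besides p53, and genes of those inputs were listed beside them. Of the ATF4 and integrated stress response list, 5 of 13 rose and 6 fell in LS411N-BR, and 1 of 14 rose and 1 fell in LS411N. Over all genes 56.1% rose and 11.1% fell in LS411N-BR, and 9.75% rose and 3.43% fell in LS411N. The transcription factor ATF3 rose in both lines (0.74 in LS411N-BR and 0.39 in LS411N), and the stress protein NUPR1 fell in both (-1.20 in LS411N-BR and -0.51 in LS411N), although its groups overlapped in LS411N. In LS411N the ATF3 call was lost in 8 of 15 alternatives (adjusted p up to 0.40) and the NUPR1 call in 5 of 15 (adjusted p up to 0.37), most of them leaving out a single library. The mTORC1 inhibitor DDIT4 averaged 72.3 ± 7.06 TPM with doxycycline and 85 ± 3.3 TPM without it in LS411N-BR, and in LS411N 225 ± 18.4 TPM with doxycycline and 173 ± 10.4 TPM without it, with a difference between the lines of -0.61 (adjusted p = 0.02). The DDIT4 rise in LS411N was not called. DDIT4 was picked after its values were seen, and its results were not followed over the alternatives. SLC7A11, the cystine transporter, changed by -0.72 in LS411N-BR (adjusted p = 8.4e-26) and by -0.19 in LS411N (adjusted p = 0.46), with a difference of -0.53 (adjusted p = 0.046) that lost its call in 14 of 20 alternatives, with adjusted p up to 0.16. Immediate early genes, which growth factor signals induce, rose in 12 of 12 in LS411N-BR, where 56.1% of all genes rose, and in 6 of 13 in LS411N, where 9.75% did. KLF4 had 88.3, 80.5 and 83.1 TPM in LS411N-BR with doxycycline, against 27.2, 30.2 and 26.9 TPM without it, and rose by 1.55 in LS411N-BR and 1.21 in LS411N. JUNB rose by 0.69 in LS411N-BR and 0.77 in LS411N, and FOS by 0.86 in LS411N-BR and 0.39 in LS411N. The FOS call in LS411N was lost in 8 of 14 alternatives (adjusted p up to 0.25), 5 of which left out a single library. Whether these inputs played a part in the levels of GDF15 or BTG2 was not tested.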

How the data were processed

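Libraries were made with the TruSeq Stranded mRNA kit from cells grown in triplicate, per the labels' protocols, and number 12 in all. The authors deposited TPM per gene in a table for each line, with a sum of 1000000 TPM in every library. The submitters' processing notes name STAR, DESeq2 and GRCh38 but no role for them, nor the program behind the TPM. Nothing says that triplicates were grown on separate days, so the spread between libraries, from which the p-values are built, may be technical.

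Each line's doxycycline libraries were set against those without doxycycline with limma 3.58.1 (R 4.3.3) on log2(TPM + 1) with an intensity trend, two-sided, over genes that reached 1 TPM in 3 or more libraries, at a Benjamini-Hochberg adjusted p under 0.05. For LS411N-BR limma returned infinite prior degrees of freedom: a gene's spread there is that of the trend, and p-values are very small. Its SE and p-values in that line do not measure the spread of its own libraries. The difference between lines was the interaction term over 12 libraries. Fits were tested on simulated data. The members and lists were chosen with earlier results of these data known. Of each other list, the genes named are up to 6 with the smallest adjusted p in LS411N-BR among those called in both lines and up to 3 called in a single line. The members, MUC1, CDKN1A, MDM4, USP7 and ATM are named whatever their result, 1 further gene that the rule names is not reported here, and CCNG1 with the 4 other targets that fell, DDIT4 and the marker genes were chosen after their values were seen. Positions are from GENCODE 29 (GRCh38) and promoter sequences from RefSeq (GRCh38.p14); TP53INP1 and PHLDA3 have no window shown. Alternatives were a pseudocount of 0.1 TPM, no filter, a 5 TPM filter, rescaling by median of ratios, rescaling over protein-coding genes, no trend, robust moderation, the replicate number as a covariate, the spread from all 12 libraries and leaving out each library.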

Additional observations from a re-analysis of the deposited data

Results flagged for a closer look

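BTG2 changed with doxycycline by 0.68 ± 0.07 SE in LS411N-BR and by 0.11 ± 0.14 SE in LS411N on the log2(TPM + 1) scale, and the interaction term put the difference between the lines at 0.56 (adjusted p = 0.038). The untreated LS411N library of replicate 3 had 11 TPM of BTG2 against 8.11 and 8.85 TPM in the other untreated libraries. Without it the difference was 0.45 (adjusted p = 0.0025). The call was nevertheless lost in 11 of 20 alternatives, among them leaving out any single LS411N-BR library (adjusted p up to 0.15). The groups have 3 libraries each, too few for a check of single outlying values.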

How the results depend on the processing

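Counts below are genes called, and the main counts stand in the report. Over the alternatives, the single genes followed kept their call (higher, lower or not called) in 615 of 633 values in LS411N-BR, 576 of 646 in LS411N and 808 of 874 for the difference between lines, whatever the sign of values that were not called. Under median-of-ratios rescaling in LS411N-BR, sign and call both changed for USP7 (-0.01, no longer called) and ATM (-0.13, called lower). That rescaling called 3653 genes higher and 3644 lower in LS411N-BR, 2126 and 1804 in LS411N and 512 and 751 for the difference. Of other p53 targets it called 23 higher and 10 lower in LS411N-BR, 1 lower in LS411N and 6 lower for the difference, of p53 regulators 2 higher and 7 lower in LS411N-BR and 1 and 2 in LS411N, and of cell cycle genes 2 higher and 14 lower in LS411N-BR, 12 lower in LS411N and 2 higher for the difference. For the difference it called 2 members higher and 3 lower. Rescaling over protein-coding genes called 2444 genes lower in LS411N-BR, 2677 higher and 1345 lower in LS411N, and 552 and 442 for the difference. It called 2 members lower in LS411N, and 2 higher and 1 lower for the difference. Of other p53 targets it called 8 lower in LS411N-BR and 1 in LS411N, of regulators 3 higher and 5 lower in LS411N-BR and 2 and 2 in LS411N, and of cell cycle genes 3 higher and 8 lower in LS411N-BR, 10 lower in LS411N and 2 higher for the difference. Both change the scale by construction. A filter of 5 TPM, which tests fewer genes, called 253 genes lower in LS411N, 84 higher and 56 lower for the difference, 0 members lower in LS411N, where SESN1 is no longer tested, 3 other targets lower in LS411N-BR, 10 higher and 1 lower in LS411N and 1 lower for the difference, and 1 cell cycle gene lower in LS411N. Without the filter 583 genes were higher and 223 lower in LS411N, 1 member was lower in LS411N-BR, 1 higher in LS411N and 0 higher for the difference, 5 regulators and 3 cell cycle genes were higher in LS411N-BR, and 5 other targets and 0 cell cycle genes were higher in LS411N, with 0 other targets lower for the difference. A pseudocount of 0.1 TPM gave 59 genes higher, 50 lower and 0 members higher for the difference. Without the trend 2 cell cycle genes were lower in LS411N-BR, and without it or with robust moderation 1 other target and 1 cell cycle gene were lower in LS411N. The spread from all 12 libraries gave 722 genes lower, 3 other targets lower, 3 regulators higher, and 2 cell cycle genes higher and 2 lower in LS411N-BR, and 1952 genes higher, 685 lower, 1 other target lower and 3 cell cycle genes lower in LS411N. The causes of these shifts were not tested unless stated.

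Same-numbered libraries with and without doxycycline correlated at 0.03, 0.01 and 0.17 in LS411N and at 0.02, 0.00 and 0.01 in LS411N-BR in their deviations from group means. No pairing by number was visible. With 3 libraries per group, this check cannot settle whether same-numbered libraries were handled together. With the replicate block, 632 genes were higher in LS411N, 3 other targets and 2 cell cycle genes were lower in LS411N-BR, 0 cell cycle genes were higher in LS411N and 0 members were higher for the difference (BTG2, adjusted p = 0.077). The members called within each line numbered the same as without the block. Not every library correlated best with its own number.

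When libraries were left out in turn, genes higher ranged from 5459 to 6727 and genes lower from 976 to 1331 in LS411N-BR, from 454 to 5930 and 170 to 707 in LS411N, and from 67 to 465 and 47 to 593 for the difference. Without replicate 3 of untreated LS411N the counts were 5930 and 707 in LS411N and 465 and 593 for the difference. Members called ranged from 4 to 4 higher and 3 to 4 lower in LS411N-BR, 1 to 4 higher and 1 to 1 lower in LS411N, and 0 to 1 in each direction for the difference. Other p53 targets ranged from 32 to 37 higher and 3 to 5 lower in LS411N-BR, 7 to 35 and 0 to 1 in LS411N, and 0 to 1 and 0 to 6 for the difference. Regulators ranged from 5 to 10 higher in LS411N-BR and 0 to 5 in LS411N, with 0 lower, and cell cycle genes from 3 to 8 higher and 2 to 4 lower in LS411N-BR and 0 to 5 and 0 to 3 in LS411N. With unknown depth, values under 1 TPM limit TP53INP1 and PHLDA3.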
